A study of Mus musculus with 6 samples.

Results

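An early state marked by Cpa4 and Itga2 and labelled as bulge was examined in dorsal skin cells taken 4 h and 16 h after depilation. Its members were chosen on measured counts. A barcode of these libraries with 500 to 7000 detected genes and at most 10% mitochondrial UMIs (unique molecular identifiers, each standing for 1 captured transcript) was kept when it held at least 2 UMIs summed over Cpa4, Anxa3 and Has2 and at least 1 UMI summed over the bulge genes Lhx2, Lgr5, Cd34, Sfrp1 and Krt24. These criteria found 421 of 16392 cells, 182 of 7663 at 4 h and 239 of 8729 at 16 h in a series of 55177 filtered cells.

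The series followed hair follicle regeneration in wildtype FVB male mice aged P55 to P57, whose dorsal skin was shaved and waxed. Undepilated skin (0 h) was compared with skin taken after 4 h and 16 h, and later after 2, 4 and 6 d. At each time the skin of 2 mice was dissociated separately, equal cell numbers were mixed, and 1 library was made with 10x Chromium 3′ chemistry. The 4 h library held 72634390 UMIs in 7960 barcodes and the 16 h library 112370376 UMIs in 9534 barcodes. Because each time is a single pool, a difference between 4 h and 16 h had no replicate check, no test was possible, and time and library cannot be told apart. Intervals below are exact 95% intervals (Poisson for levels, Clopper-Pearson for shares) that cover counting error only and not the spread between mice. Only 7 barcode sequences occurred in both libraries.

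The bulge is the permanent lower part of the resting hair follicle and houses quiescent stem cells marked by Cd34, Lhx2, Lgr5, Krt15 and Krt24. Plucking the hair shaft wounds the follicle and sets off a new growth phase, in which cells of the secondary germ and then of the bulge divide. Of the genes that mark the state, Cpa4 encodes a secreted carboxypeptidase, Anxa3 an annexin that binds phospholipid in the presence of calcium, and Has2 a hyaluronan synthase. Itga2 encodes the α2 subunit of the collagen-binding integrin α2β1, Ptgs2 the inducible cyclooxygenase that starts prostaglandin synthesis, and Krt8 the keratin of simple epithelia that pairs with Krt18.

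Cells meeting the criteria made up 2.38% of the filtered 4 h library, with an interval of 2.05 to 2.74%, and 2.74% of the 16 h library, with an interval of 2.41 to 3.10%. The remaining libraries gave 0.491% (0 h), 0.378% (2 d), 0.282% (4 d) and 0.817% (6 d). The libraries at 4 h and 16 h were therefore the highest of the 6, but their members were named from these same counts and the comparison is a description. After each cell was thinned to 3000 UMIs the shares were 0.839% at 4 h (58 of 6917 cells), 0.723% at 16 h (59 of 8157 cells) and between 0.0356% and 0.194% in the other libraries. Thinning thus lowered every share, and 4 h and 16 h could not be ordered at either depth from overlapping intervals. T cells were used to read free RNA in the droplets, and at least 2 UMIs of Cpa4, Anxa3 and Has2 were seen in 2 of 423 T cells at 4 h and in 0 of 279 at 16 h (where a floor of 3 cells allows a share of up to 1.08%; median 2317 and 2378 UMIs per T cell).

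Many members lay close to the threshold. At 4 h 64 members and at 16 h 82 members held exactly 2 UMIs of Cpa4, Anxa3 and Has2, while 46 and 89 held 5 or more. Just outside it, 192 and 229 cells with a bulge UMI held 1 UMI of these genes. On the side of the bulge genes, 94 and 81 members carried a single UMI, and 27 and 80 carried 4 or more of Cd34, Krt24, Sfrp1 and Lhx2. A further 444 cells at 4 h and 189 cells at 16 h held at least 2 UMIs of Cpa4, Anxa3 and Has2 with 0 UMIs of the bulge genes.

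The mix of rule genes differed between the libraries. At 4 h Cpa4 was counted alone in 68 members and together with Has2 in 38, with Anxa3 in 26 and with both in 9. At 16 h Anxa3 was counted alone in 88 members and with Cpa4 in 87. Summed over members, Cpa4 stood at 245 CPM (UMIs of the gene per 1000000 UMIs of the cells summed) at 4 h and 102 CPM at 16 h. Has2 likewise was higher at 4 h, with 83.6 CPM against 24.8 CPM. Anxa3 ran the other way, at 57.4 CPM at 4 h and 225 CPM at 16 h. Members at 4 h were thus found mainly through Cpa4, and those at 16 h mainly through Anxa3, often with Cpa4. These 3 genes chose the members and their levels are descriptions.

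The label of a bulge state was checked by clustering each library and locating the members. At 4 h, 79 of the 182 members lay in cluster 6, a cluster of 416 cells led by Cryab, Tm4sf1, Fst, Sox9, Cpa4, Ptgs2, Ctsl, Cald1, Postn and Itga2, and 46 lay in cluster 8, whose leading genes included Ccn2, Cd34, Krt24, Postn and Krt15. At 16 h, 150 of 239 members lay in cluster 6, a cluster of 580 cells led by Krt24, Cd34, Ccn2, Grem1, Cald1, Fst, S100a4, Lhx2, Krt8 and Anxa3. The remaining members were scattered, so that 12 clusters at 4 h and 18 at 16 h held at least 1. These others included 24 members in a 4 h cluster whose leading genes included Mmp3, Il24 and Areg, and 16 in a 16 h cluster led by Nppb, Krt6b and Mmp3. Others lay with comparison cells, 8 in 16 h cluster 15 (61 comparison cells, leading genes including Sncg, Fgf18, Lhx2 and Cd34) and 4 in cluster 19 (32 comparison cells, leading genes including Lgr5 and Lhx2), and single members lay in clusters led by T cell or Langerhans cell genes.

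The label was then read from 16 outer bulge genes that the criteria did not use, set against the whole library. The 46 members in 4 h cluster 8 stood above the whole library in 16 of the 16 genes, with Krt15 at 6596 against 805 CPM. In 16 h cluster 6 the 150 members stood above it in 13, the exceptions being Krt15 (1938 against 2372 CPM), Fgf18 and Npnt. The 79 members in 4 h cluster 6, which held only 6 of the 138 comparison cells, stood above it in 10, with Krt15 at 845 CPM. Without Krt15 the other 15 genes summed to 2131 CPM in members of 4 h cluster 8, 1480 CPM in those of 4 h cluster 6 and 288 CPM in the whole 4 h library, and at 16 h to 1148 against 428 CPM. Sox9, a transcription factor of the bulge and outer root sheath, was at 543, 633 and 464 CPM in these 3 groups of members, against 82.5 CPM (4 h) and 102 CPM (16 h) over all cells. The label was thus met in 4 h cluster 8, whereas in both clusters numbered 6 the genes were divided, with Krt15 near or below the level of the library and Sox9 above it. Because members needed a bulge UMI these values are a description, and the word state stands for the criteria.

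For contrast, marker-negative bulge cells of the same library were taken as cells with at least 4 UMIs of Cd34, Krt24, Sfrp1 and Lhx2 and 0 UMIs of Cpa4, Anxa3 and Has2. There were 138 at 4 h and 407 at 16 h, and the name stands for these criteria. In the main clusters (those with at least 20% of members or of comparison cells, which were clusters 6 and 8 at 4 h and cluster 6 at 16 h, a restriction chosen after seeing the data) there were 79 and 205, beside 125 and 150 members. Comparison cells outside the main clusters included 22 in 4 h cluster 2 (Cd34 at 0.0888 CPM over the cluster) and 17 in 4 h cluster 3, led by Krt1. At 16 h they included 61 in cluster 15 and 32 in cluster 19, named above, and 23 in cluster 1 (Cd34 at 0.631 CPM). Krt10, a suprabasal keratin, stood at 5959 and 4487 CPM over all comparison cells. Contrasts over all members thus do not set the state against bulge cells alone. Members had a median of 6239 UMIs at 4 h and 9932 at 16 h, and comparison cells 7086 and 7309. Because the same criteria set both groups of cells, every contrast between them is a description with no test. Unless stated otherwise, the CPM values that follow are UMI sums over members of the main clusters, set against comparison cells of those clusters.

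Itga2 was higher in the state than in marker-negative bulge cells in both libraries. At 4 h it stood at 235 CPM (202 to 272) in members and 31.6 CPM in comparison cells, a 7.45-fold difference (4.40 to 13.6). The difference was smaller within each 4 h cluster, at 94.7 against 24.7 CPM in cluster 8 (3.84-fold) and 312 against 134 CPM in cluster 6 (4 UMIs in 6 comparison cells). At 16 h the levels were 121 CPM (104 to 141) and 43.8 CPM, a 2.77-fold difference (2.07 to 3.76). Itga2 UMIs were present in 64.8% of members and 17.7% of comparison cells at 4 h, and in 54.0% and 27.3% at 16 h. In T cells Itga2 was at 13.1 and 7.32 CPM. In 4 h cluster 4, with 849 cells and 6 members, it was at 95.5 CPM, close to the members of cluster 8. Over all members, thinned to 3000 UMIs, an Itga2 UMI was found in 35.3% and 24.4%, against 5.26% and 9.25% of comparison cells and 2.84% and 2.15% of unthinned T cells.

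Ptgs2 was higher in members of the main clusters by a similar factor at both times. Its level was 468 CPM (421 to 519) at 4 h against 168 CPM in comparison cells, or 2.78-fold (2.18 to 3.59). At 16 h it was 293 CPM (266 to 323) against 115 CPM, or 2.55-fold (2.12 to 3.07). A Ptgs2 UMI was held by 54.4% and 48.0% of members and by 25.3% and 23.9% of comparison cells. T cells gave 29.1 and 43.0 CPM. In 16 h cluster 3, with 717 cells and 9 members and leading genes including Epgn and Ptgs2, Ptgs2 stood at 377 CPM, above the members. A high Ptgs2 level was thus not particular to the state at 16 h. Among members with at least 4 UMIs of Cd34, Krt24, Sfrp1 and Lhx2, given below, the factors were not similar and the 2-fold size was lost at 16 h.

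Krt8 separated the libraries. At 4 h members held 6 Krt8 UMIs in all (7.75 CPM, interval 2.85 to 16.9) and comparison cells 11 (23.1 CPM). At 16 h members held 397 UMIs (285 CPM, 258 to 315) and comparison cells 10 (6.85 CPM), a 41.7-fold difference (22.4 to 87.6). At least 1 Krt8 UMI was seen in 4.00% of members at 4 h and 42.0% at 16 h, while comparison cells stood at 5.06% and 3.41%. Its partner Krt18 followed the same order, with 1 UMI in members at 4 h (1.29 CPM) and 79 at 16 h (56.8 CPM), where comparison cells had 0 UMIs and the difference was at least 27.6-fold (against a floor of 3 UMIs over the group). Krt8 was thus a marker of the state at 16 h but not at 4 h in these clusters. Cells rich in Krt8 did exist at 4 h, in a separate cluster of 198 cells led by Krt18, Krt8 and Lcn2 that stood at 464 CPM of Krt8 and contained 5 members.

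Over all clusters, marker levels were also read by the number of rule UMIs a cell held. Cells with 0 were the comparison cells, those with 1 were not members, and those with 2 or more were members. At 4 h Itga2 stood at 19.8 CPM in comparison cells with 0, 72.1 CPM in cells with 1, 66.0 CPM with 2, 137 CPM with 3 or 4, and 249.7 CPM with 5 or more. At 16 h the corresponding levels were 22.5, 23.5, 42.4, 71.2 and 96.8 CPM. Krt8 at 16 h stood at 4.95, 32.6, 43.3, 119.8 and 243 CPM in the same order. At 4 h Krt8 stood at 8.79, 7.69, 53.9, 4.22 and 19.0 CPM. Ptgs2 stood at 90.1, 87.0, 158, 289 and 265 CPM at 4 h and at 74.1, 139, 143, 246 and 235 CPM at 16 h. Itga2 in both libraries and Krt8 at 16 h were thus highest in the cells with most rule UMIs, whereas Krt8 at 4 h was highest with 2 and Ptgs2 in both libraries with 3 or 4. Because the rule UMIs chose the members, these levels are a description. Cells with 0 needed 4 bulge UMIs and the others 1, so the groups do not form a single series. The median depth lay between 5558 and 7996.5 UMIs at 4 h (lowest with 5 or more) and between 7309 and 11318 UMIs at 16 h.

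**Figure D1:**
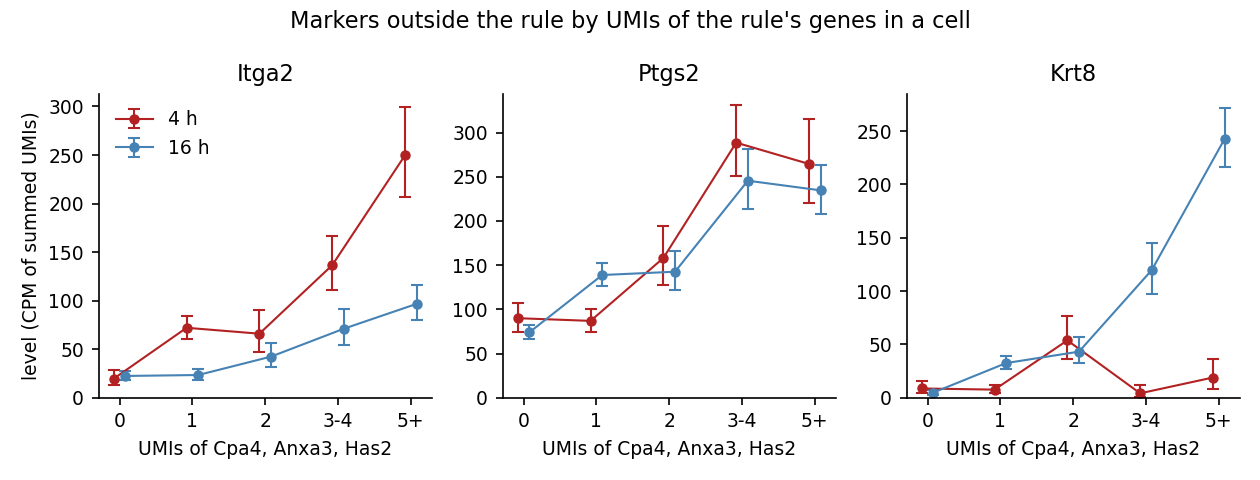
Levels of Itga2, Ptgs2 and Krt8 (vertical axis, CPM of the summed UMIs) in cells grouped by their UMIs of Cpa4, Anxa3 and Has2 (horizontal axis), at 4 h and 16 h. Bars are exact 95% Poisson intervals. Itga2 reached 249.7 CPM at 4 h and Krt8 243 CPM at 16 h in cells with 5 or more rule UMIs.

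The gene positions, in GRCm38, place Cpa4 (ENSMUSG00000039070) at chr6:30568369-30592418 on the plus strand, Anxa3 at chr5:96793339-96845966 on the plus strand and Has2 at chr15:56665627-56694539 on the minus strand. Itga2 lies at chr13:114833081-114932100 on the minus strand, Ptgs2 at chr1:150100031-150108227 on the plus strand and Krt8 at chr15:101996698-102004482 on the minus strand. All are protein-coding, and Has2 and Krt8 share a chromosome without being neighbours.

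Across all genes with at least 20 UMIs over members and comparison cells together, in both libraries, 109 of 5888 genes (1.85%) were at least 2-fold higher in members than in comparison cells at both 4 h and 16 h, and 165 (2.80%) were at least 2-fold lower. In single libraries the counts were 348 higher and 461 lower of 5929 at 4 h (5.87% and 7.78%), and 557 higher and 884 lower of 8660 at 16 h (6.43% and 10.2%). Only 7 genes (0.119%) were higher at 4 h and lower at 16 h by this fold, and 6 (0.102%) the reverse. The fold of 2 is a size and not a test, and it is passed more easily by genes with few UMIs.

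**Figure D2:**
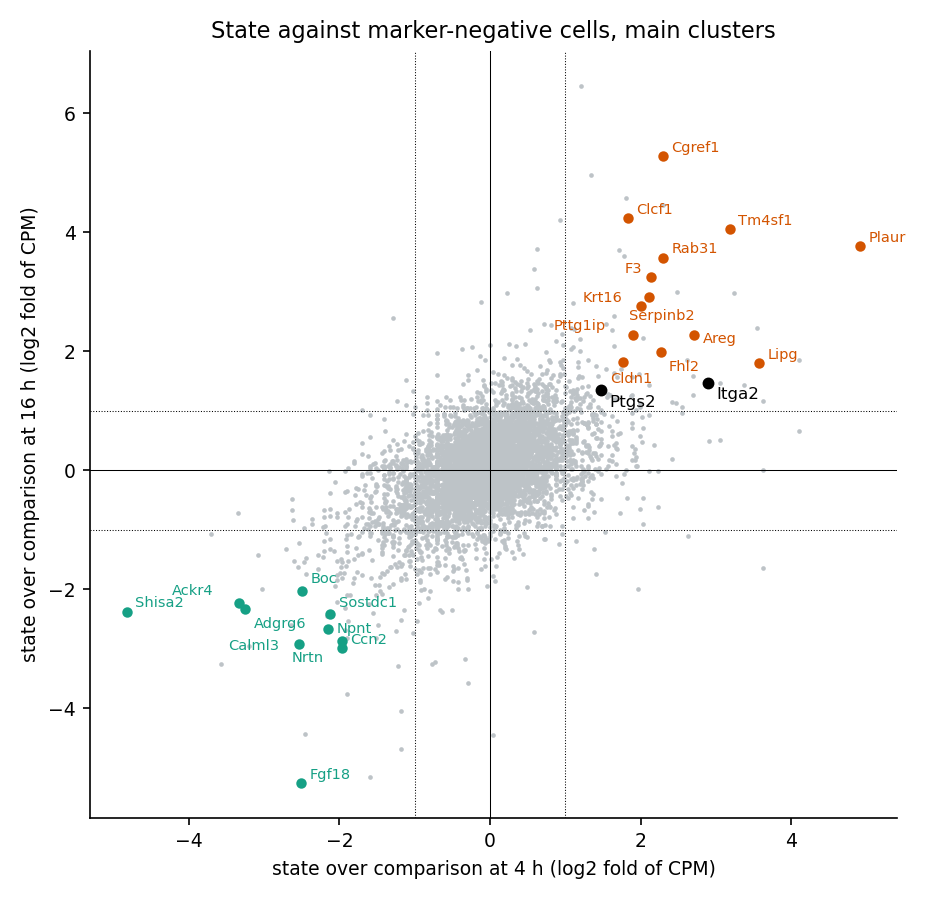
Log2 fold of the state over marker-negative bulge cells in the main clusters, 4 h on the horizontal axis and 16 h on the vertical axis, each point a gene; genes at 0 UMIs in a set are drawn at the bound given by 3 UMIs. Dotted lines mark a 2-fold difference, beyond which 109 genes were higher and 165 lower in both libraries.

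Genes higher in members of both libraries are given first, from among the 15 with the largest smaller-of-both-libraries fold. Plaur, the receptor for urokinase-type plasminogen activator, stood at 63.3 CPM at 4 h and 28.0 CPM at 16 h. Comparison cells held 1 and 3 Plaur UMIs (2.10 and 2.05 CPM), giving ratios of 30.1 (5.16 to 1213) and 13.6 (4.34 to 69.0), and T cells of the same libraries stood at 29.8 and 21.96 CPM. Tm4sf1, a membrane protein of the transmembrane 4 superfamily, was measured far more deeply. It stood at 363 CPM (322 to 408) and 408 CPM (375 to 443) in members against 39.97 and 24.7 CPM, or 9.08-fold (5.71 to 15.3) and 16.5-fold (11.8 to 23.8). Tm4sf1 was detected in 40.8% and 69.3% of members and in 7.59% and 8.78% of comparison cells, so that more members held a Tm4sf1 UMI at 16 h than an Itga2 UMI (54.0%) or a Krt8 UMI (42.0%).

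Serpinb2, the plasminogen activator inhibitor PAI-2, stood at 1759 and 1655 CPM against 406 and 221 CPM, or 4.33-fold (3.72 to 5.06) and 7.48-fold (6.65 to 8.43), with 495 and 414 CPM in T cells. Within 4 h cluster 8 it was at 532 against 227 CPM, and in cluster 6 the 6 comparison cells (3080 CPM) lay above the members (2434 CPM). F3, which encodes tissue factor, was at 102 and 32.3 CPM against 23.1 and 3.42 CPM. Both genes were thus above the comparison cells in each library as a whole, but Serpinb2 was not within 4 h cluster 6.

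Areg, the EGF receptor ligand amphiregulin, was at 289 and 26.6 CPM against 44.2 and 5.48 CPM, but its UMIs came from only 6.4% and 6.67% of members, and T cells, which also express it, stood at 708 and 618 CPM. Clcf1, a cytokine that signals through gp130, was at 96.9 and 38.8 CPM against 27.3 and 2.05 CPM (3 UMIs at 16 h), with T cells at 81.7 and 70.5 CPM. Areg was therefore a property of a small number of members rather than of the state as a whole.

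Krt16, a wound keratin, was at 1069 and 1026 CPM against 267 and 151 CPM, or 4.00-fold (3.31 to 4.86) and 6.78-fold (5.88 to 7.84), with 1579 and 327 CPM in T cells. Within 4 h cluster 8 it was at 361 against 274 CPM and the 2-fold size was lost. Cgref1, an EF-hand protein, was at 103 and 79.8 CPM against 21.04 CPM at 4 h and 0 UMIs at 16 h, or 4.91-fold (2.54 to 10.6) and at least 38.8-fold. Of its 10 comparison UMIs at 4 h, 7 came from the 6 cells of cluster 6 (234 against 148 CPM in members), and within cluster 8 there were 6 UMIs in members and 3 in comparison cells. Cldn1, a claudin of tight junctions, was at 271 and 232 CPM against 79.9 and 65.8 CPM, but at 117 against 76.3 CPM within 4 h cluster 8. Rab31, Fhl2, Pttg1ip and Lipg were also among the 15, with members at 41.4 to 320.5 CPM at 4 h and 21.6 to 249 CPM at 16 h. For Krt16 and Rab31 the T cells of the 4 h library lay above the members (1579 and 44.3 CPM).

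The letters of the AP-1 motif were searched in promoters because genes of the AP-1 family were among the lists described here. The window was the 250 bases before each start site in the RefSeq promoter table of GRCm38.p6, and the motif was TGANTCA on both strands. It occurred in 2217 of 32851 windows (6.75%), or for 2113 of 27025 genes (7.82%). Among the 6 markers 4 had an entry and 1 of these, Cpa4, held a match. Among the 15 genes higher in both libraries 10 had an entry and 4 held a match. The 6 of 10 lower genes with an entry held 0. The 60 bases around the matches are printed for these 5 genes, 5′ to 3′ on the strand of the gene, with the matched letters in capitals. They lie at chr6:30568309-30568368 (plus, Cpa4), chr7:24462387-24462446 (plus, Plaur), chr5:30945628-30945687 (minus, Cgref1), chr3:121723375-121723434 (plus, F3) and chr1:107511302-107511361 (plus, Serpinb2).
Cpa4: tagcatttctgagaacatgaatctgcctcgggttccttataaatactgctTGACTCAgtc
Plaur: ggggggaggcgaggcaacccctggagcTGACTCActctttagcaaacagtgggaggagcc
Cgref1: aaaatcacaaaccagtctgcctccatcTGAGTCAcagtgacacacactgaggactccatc
F3: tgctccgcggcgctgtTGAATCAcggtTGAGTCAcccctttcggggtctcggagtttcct
Serpinb2: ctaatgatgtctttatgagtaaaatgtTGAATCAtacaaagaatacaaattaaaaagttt
The Cpa4 match lay 10 bases before the start and F3 held a pair of matches, 146 and 135 bases before it. A match says only that these letters are in the window, and no count of AP-1 binding was made. The TEAD letters GGAATG, searched the same way, occurred in 4153 windows (12.6%), or for 3880 genes (14.4%). They were found in 1 of the 4 markers with an entry (Cpa4), 2 of the 10 higher genes and 1 of the 6 lower genes (Shisa2).

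Genes lower in the state included markers of the quiescent bulge. Krt15, the keratin most used to mark the bulge, stood at 2886 CPM in members and 10689 CPM in comparison cells at 4 h, and at 1938 and 11183 CPM at 16 h. The comparison cells were thus 3.70-fold and 5.77-fold higher, although within 4 h cluster 8 the levels were 6596 and 11278 CPM and the 2-fold size was lost. Ccn2, a secreted matricellular protein, was at 118 and 74.0 CPM against 461 and 586 CPM, or 3.92-fold and 7.91-fold higher in comparison cells. Dkk3, a secreted protein of the Dickkopf family, was at 50.4 and 27.3 CPM against 187 and 192 CPM. Within 4 h cluster 8 Ccn2 (291 against 492 CPM) and Dkk3 (109 against 198 CPM) were also under 2-fold. Krt15 UMIs were still present in 90.4% and 71.3% of members, and Ccn2 UMIs in 22.4% and 21.3%.

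Fgf18, a ligand known for holding the follicle in its resting phase, was at 33.6 CPM at 4 h and 0.719 CPM (1 UMI) at 16 h against 191 and 27.4 CPM. Shisa2, an inhibitor of Wnt and FGF receptor maturation, was at 3.88 CPM (3 UMIs) and 23.0 CPM against 109 and 119 CPM. Sostdc1, a secreted BMP and Wnt antagonist, was at 27.1 and 52.5 CPM against 118 and 278 CPM, and within 4 h cluster 8 at 69.2 against 126 CPM, under 2-fold. Npnt, the basement membrane protein nephronectin, was at 14.2 and 6.47 CPM against 63.1 and 41.1 CPM. The atypical chemokine receptor gene Ackr4, the adhesion receptor gene Adgrg6, the hedgehog co-receptor gene Boc, the neurturin gene Nrtn and Calml3 showed the same order in both libraries. Members carried lower counts of the bulge genes by construction, because comparison cells needed 4 such UMIs and members needed 1.

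To apply the same minimum to both sets, members with at least 4 UMIs of Cd34, Krt24, Sfrp1 and Lhx2 were compared alone. There were 26 at 4 h and 65 at 16 h in the main clusters (chosen after seeing the data). Their median was 5729 and 8716 UMIs against 5306 and 6512 in comparison cells, so the sets were not matched for depth. Krt15 stood at 5129 and 3237 CPM in these members, still below the 10689 and 11183 CPM of comparison cells. Ccn2 was at 140.2 and 76.4 CPM and Dkk3 at 104 and 49.9 CPM, also below them. Itga2 remained higher, at 223 and 93.5 CPM against 31.6 and 43.8 CPM, and so did Tm4sf1, at 104 and 224 CPM against 39.97 and 24.7 CPM. Ptgs2 was higher at 4 h (488 against 168 CPM), but at 16 h it was at 145 against 115 CPM and the 2-fold size was lost. Krt8 was at 0 UMIs at 4 h and at 171 CPM at 16 h. Without the restriction to main clusters, the 27 and 80 such members had Krt15 at 4553 and 2968 CPM against 4458 and 6933 CPM, so at 4 h the lower Krt15 level held only within the main clusters.

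At 4 h members and comparison cells lay largely in different clusters, since cluster 6 held 79 members and only 6 comparison cells while cluster 8 held 46 and 73. Within cluster 8 alone Itga2 was at 94.7 CPM in members and 24.7 CPM in comparison cells, and in the members of cluster 6 at 312 CPM. Ptgs2 was at 404 CPM in members of cluster 8, 173 CPM in its comparison cells and 503 CPM in members of cluster 6. Tm4sf1 was at 106, 31.4 and 505 CPM in the same order, and Plaur at 25.5 CPM, 0 UMIs and 84.1 CPM. Krt16 (361, 274 and 1458 CPM), Cldn1 (117, 76.3 and 357 CPM), Pttg1ip (131, 78.6 and 425 CPM) and Clcf1 (29.1, 15.7 and 134 CPM) were under 2-fold within cluster 8, as were Krt15, Ccn2, Dkk3 and Sostdc1 in the other direction. Krt15 was at 6596, 11278 and 845 CPM in that order, and Ccn2 at 291, 492 and 22.03 CPM. Sox9 was at 543, 512 and 633 CPM. The 4 h state therefore spanned cells with much Krt15 (cluster 8) and cells with little (cluster 6), and Itga2 and Tm4sf1 were highest in the latter. Over all 416 cells of cluster 6 Itga2 was at 339 CPM and Ptgs2 at 571 CPM, no lower than in its members. High levels of these markers were thus not particular to members there. With 4 h cluster 8 and 16 h cluster 6 alone, the clusters with at least 20% of comparison cells (chosen after seeing the data), 31 genes were at least 2-fold higher and 72 lower in both libraries. Of the 109 higher genes 54 could still be measured there and 27 kept the 2-fold size, and of the 165 lower genes 135 and 60. The part of the cluster in the remaining differences was not tested.

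**Figure D3:**
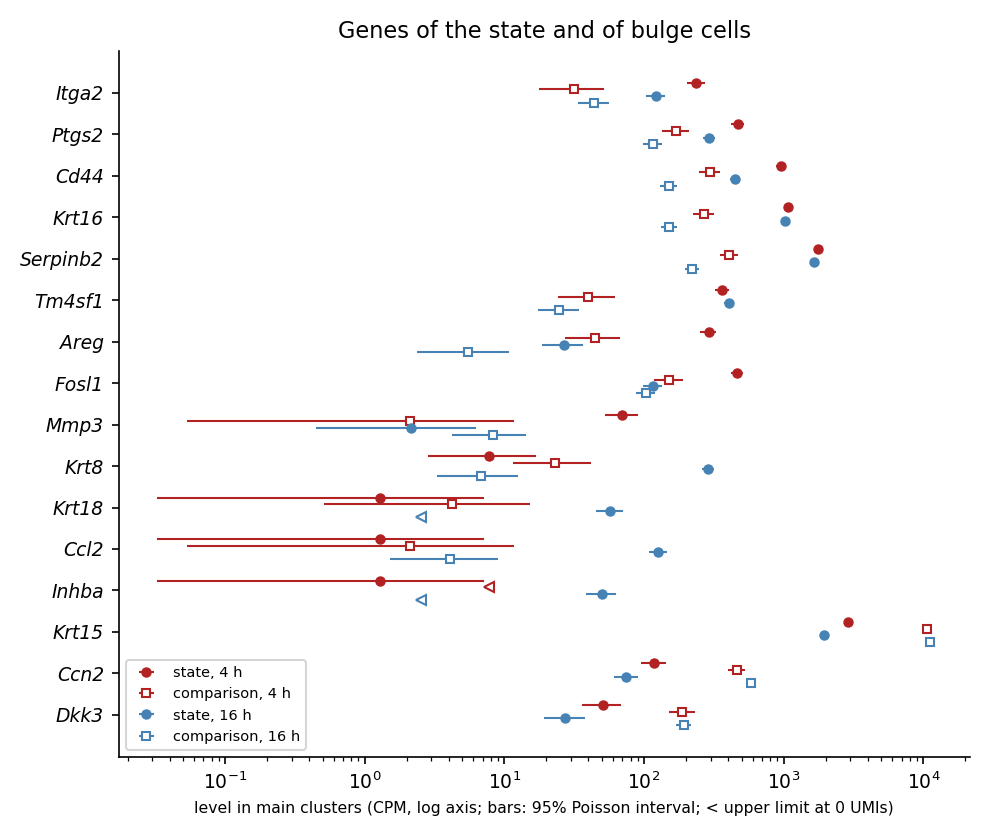
Levels of 16 genes in cells of the main clusters (horizontal log axis, CPM of the summed UMIs) at 4 h and 16 h. Filled points are members of the state, open points marker-negative bulge cells, bars exact 95% Poisson intervals, and the symbol < an upper limit where 0 UMIs were counted. Krt8 is at 7.75 CPM in members at 4 h and 285 CPM at 16 h, whereas Krt15 is below the comparison cells at both times.

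The gene lists are described by the number of measured members past a 2-fold size, higher and lower, and the median log2 fold, beside a median over all genes of -0.04 at 4 h and -0.02 at 16 h. Of all genes 5.87% were higher and 7.78% lower at 4 h, and 6.43% and 10.2% at 16 h, so that a list with 1 or 2 such genes of 10 to 20 lay near the background. A gene with under 20 UMIs over both sets was not measured, so that a gene low in one set was counted only if it was high in the other, and the counts describe the measured genes alone. Of 16 outer bulge genes that the rule did not use, 13 were measured at 4 h (1 higher, 6 lower, median -0.97) and 14 at 16 h (0 higher, 10 lower, median -1.64). The 10 keratins of simple and wounded epithelia gave 2 higher and 1 lower of 5 at 4 h (median 0.66) and 6 higher and 1 lower of 7 at 16 h (median 2.76). Among them Krt17 was at 3351 and 3658 CPM against 2644 and 864 CPM, and Krt6a at 3819 and 1979.7 CPM against 2421 and 586 CPM. The exception was Krt80, at 56.9 and 38.1 CPM against 151 and 91.1 CPM. More of these keratins passed the 2-fold size at 16 h than at 4 h, and Krt17 and Krt6a differed more between the libraries in comparison cells than in members.

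The 16 integrin and adhesion genes gave 5 higher and 0 lower of 13 at 4 h (median 0.54) and 3 higher and 1 lower of 15 at 16 h (median 0.11). Itgb1, the β1 partner of the α2 subunit, was at 973 and 429 CPM against 389 and 206 CPM. Itga3 was at 151 and 71.2 CPM against 71.5 and 65.8 CPM, so that its difference was seen at 4 h only. The 17 hyaluronan and prostaglandin genes gave 5 higher of 8 and 4 higher of 9 with 0 lower (medians 1.10 and 0.65). In this list Cd44, the hyaluronan receptor, was at 951 and 447 CPM against 295 and 150 CPM, or 3.23-fold and 2.98-fold. The 14 plasminogen system genes gave 4 higher and 0 lower of 7 at 4 h (median 1.12) and 3 higher and 1 lower of 7 at 16 h (median 0.92).

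The 19 genes of ERBB ligands and feedback gave 6 higher and 0 lower of 11 at 4 h (median 1.62) and 2 higher and 2 lower of 15 at 16 h (median -0.13). Phlda1, a feedback gene of growth factor signalling, was at 675 and 240.1 CPM against 126 and 109 CPM. Hbegf, which encodes heparin-binding EGF-like growth factor, was at 436 and 198 CPM against 118 and 121 CPM. Epgn and Errfi1 were higher in members at 4 h (86.6 against 25.2 CPM and 146 against 44.2 CPM), while at 16 h they were at 46.7 against 48.6 CPM and 41.7 against 68.5 CPM.

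Immediate early and AP-1 genes gave 1 higher and 2 lower of 20 at 4 h (median -0.20) and 0 higher and 7 lower of 20 at 16 h (median -0.92). The higher member was Fosl1, which encodes the AP-1 subunit FRA-1 and was at 464 CPM against 151 CPM at 4 h, and at 115 against 103 CPM at 16 h. Within the 4 h clusters Fosl1 was under 2-fold, at 255 against 135 CPM in cluster 8 and 579 against 402 CPM in cluster 6. Fos was at 3699 and 1927 CPM against 5436 and 3268 CPM, Jun at 2404 and 1419 CPM against 3677 and 2799 CPM, and Atf3 at 1197 and 1138 CPM against 2485 and 2677 CPM. These genes are also known to be induced by dissociation, and T cells carried Fos at 4328 and 3096 CPM.

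The 23 cytokine and NF-kB genes gave 1 higher and 0 lower of 7 at 4 h (median 0.69) and 7 higher and 0 lower of 10 at 16 h (median 1.495). Ccl2, a chemokine that attracts monocytes, held 1 UMI in members at 4 h and 175 at 16 h (126 CPM), against 4.11 CPM in comparison cells, or 30.6-fold (13.8 to 84.6). Cxcl16 was at 136 and 201 CPM against 73.6 and 44.5 CPM, and Nfkbia, the inhibitor IκBα, at 905 and 1102 CPM against 507 and 491 CPM. Csf1, the macrophage growth factor, was at 5.17 CPM (4 UMIs) and 36.7 CPM against 6.31 CPM (3 UMIs) and 5.48 CPM. The 7 higher genes at 16 h thus included Ccl2, Cxcl16, Nfkbia and Csf1.

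The 21 actin cytoskeleton genes gave 3 higher of 19 at 4 h (median 0.57) and 5 higher of 20 at 16 h (median 0.72), with 0 lower. Tpm1, a tropomyosin of stress fibres, was at 868 and 1075 CPM against 328 and 318 CPM. Flna, filamin A, was at 143 and 418 CPM against 126 and 113 CPM. The 13 YAP target genes gave 0 higher and 2 lower of 10 at 4 h (median -0.36) and 2 higher and 2 lower of 10 at 16 h (median 0.03).

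Ribosome biogenesis genes gave 1 higher of 20 at 4 h (median 0.47) and 10 higher of 20 at 16 h (median 1.01), with 0 lower. Ncl, nucleolin, was at 2428 and 1617 CPM against 1658 and 705 CPM, and Rrp12 at 52.99 and 31.6 CPM against 23.1 and 6.85 CPM. The 20 genes of the G1 phase and replication licensing gave 1 higher and 3 lower of 8 at 4 h (median -0.32) and 3 higher and 1 lower of 15 at 16 h (median 0.61). Cdkn1a, the cell cycle inhibitor p21, was at 641 and 438 CPM against 269 and 253 CPM, whereas Cdkn1b, the inhibitor p27, was at 20.7 and 23.0 CPM against 61.0 and 65.1 CPM. The pair of inhibitors thus differed from comparison cells in opposite directions in both libraries. Cells with at least 2 UMIs of 10 cycling markers, at 3000 UMIs per cell, were 7.19% of all members at 4 h (12 of 167) and 19.3% at 16 h (46 of 238), against 16 of 133 (12.03%) and 98 of 400 (24.5%) comparison cells.

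The 26 BMP, Wnt and TGF-β genes gave 0 higher and 4 lower of 13 at 4 h (median -0.52) and 3 higher and 4 lower of 18 at 16 h (median 0.27). Id2 and Id4, targets of BMP signalling, were at 116 and 61.8 CPM against 319.8 and 252 CPM and at 37.5 and 15.8 CPM against 101 and 66.4 CPM. Inhba, the activin βA subunit, held 1 UMI in members at 4 h and 69 at 16 h (49.6 CPM), while comparison cells held 0 in both libraries, a difference of at least 24.1-fold at 16 h. The 20 BCL-2 family and p53 genes gave 0 higher and 1 lower of 9 at 4 h (median 0.09) and 3 higher and 1 lower of 16 at 16 h (median 0.52). Mcl1, the survival gene that the study examined, was at 302 and 193 CPM in members and 284 and 221 CPM in comparison cells, log2 folds of 0.09 and -0.20. Heat shock genes gave 0 in either direction of 12 at both times (medians 0.11 and 0.29).

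The 4 h counts of these lists were taken again within cluster 8 alone, where 129 of 4406 genes (2.93%) were higher in members and 290 (6.58%) lower (chosen after seeing the data). ERBB genes gave 5 higher of 8 there (Areg, Hbegf, Epgn, Errfi1 and Phlda1), integrin and adhesion genes 4 of 11, actin genes 3 of 19, plasminogen genes 2 of 4 and hyaluronan and prostaglandin genes 2 of 6, each with 0 lower. Of these ERBB genes, Epgn rested on 14 UMIs in members and 11 in comparison cells. Areg UMIs in the main clusters came from a small number of members, as given above. Cdkn1a (586 against 256 CPM) and Cdkn1b (21.9 against 65.1 CPM) kept their opposite directions, and Tpm1 was at 758 against 319 CPM. Outer bulge genes gave 0 higher and 3 lower of 12 (median -0.61). Immediate early genes gave 1 higher of 19 (Maff) and 0 lower, and keratins 0 higher and 1 lower of 4. Cytokine, ribosome biogenesis, YAP, BMP and Wnt, BCL-2 and p53, and heat shock genes gave 0 in either direction. Under 2-fold there were Itgb1 (557 against 357 CPM), Cd44 (517 against 269 CPM), Krt6a (4276 against 2382 CPM), Atf3 (2335 against 2640 CPM), Rrp12 (43.7 against 24.7 CPM), Id2 (186 against 341 CPM) and Id4 (94.7 against 108 CPM).

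Between 4 h and 16 h, 479 of 7581 genes (6.32%) were at least 2-fold higher in members at 4 h and 1001 (13.2%) at 16 h. In comparison cells the counts were 495 of 7706 (6.42%) and 832 (10.8%). More genes were thus past this size toward 16 h in both sets, and the member sums were also unequal, at 773797 UMIs at 4 h and 1391108 at 16 h. The counts do not show which of these differences belong to the state.

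Genes higher at 4 h within the state were led by Mmp3, the matrix metalloproteinase stromelysin, at 69.8 CPM (54 UMIs) against 2.16 CPM (3 UMIs) at 16 h. Its UMIs came from 4.8% of members at 4 h, and T cells of that library stood at 61.6 CPM. Cyp26b1, which degrades retinoic acid, was at 68.5 and 3.59 CPM, and Cck, the cholecystokinin gene, at 42.6 and 1.44 CPM, although comparison cells held more of both (86.3 and 32.2 CPM of Cyp26b1, 128 and 51.4 CPM of Cck). Has3, a hyaluronan synthase not used by the rule, was at 43.9 and 3.59 CPM. Pmp22, a myelin and epithelial membrane protein, was at 173 and 23.0 CPM. Also among the 12 were Sh2d5, Crct1, Areg, Col23a1, Sprr1a and Isg20. In the 4 h members of cluster 8 Sprr1a (18.2 CPM) and Crct1 (3.64 CPM, 1 UMI) lay below the 16 h members (28.8 and 5.03 CPM). Mmp3 had 0 UMIs there. Fosl1, from the AP-1 list, was at 464 and 115 CPM, and 7 of the 20 immediate early genes were at least 2-fold higher at 4 h in members (median log2 fold 0.93) against 0 of 20 in comparison cells (median 0.29). By cluster, 14 of 20 were higher in the 4 h members of cluster 8 and 4 of 20 in those of cluster 6.

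Genes higher at 16 h were led by Ccl2, Krt18, Inhba and Krt8, each at 1 to 6 UMIs in members at 4 h. Krt8 was 36.8-fold higher at 16 h. Slpi, a secreted protease inhibitor, was at 1.29 CPM (1 UMI) and 41.0 CPM, and Basp1, a membrane-associated signalling protein, at 2.58 CPM (2 UMIs) and 58.9 CPM. Bcl2l15, a BCL-2 family gene, was at 9.05 and 159 CPM, against 4.21 and 4.11 CPM in comparison cells. Rab32, Stfa3, Parp4, Galk1 and Cyp2j6 completed the 12. Krt8, Krt18, Ccl2 and Bcl2l15 were therefore low in members at 4 h and in comparison cells of both libraries, and high in members at 16 h but in no other of these sums. Members at 16 h that met the same minimum of 4 bulge UMIs as comparison cells stood at 62.3 CPM of Krt18 and 65.5 CPM of Ccl2, but held only 3 UMIs of Inhba (4.68 CPM).

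Within lists, where 6.32% of all genes were higher in members at 4 h and 13.2% at 16 h, 4 outer bulge genes of 13 were higher in members at 4 h and 0 at 16 h (median 0.57, beside -0.08 over all genes), with 2 and 2 of 14 in comparison cells. This order came with cluster 8, whose 4 h members gave 6 and 0 of 11 against 16 h members (median 1.07), while those of cluster 6 gave 2 and 4 of 11 (median -0.09). Of all genes 6.44% and 14.9% were higher at 4 h and at 16 h with cluster 8, and 7.24% and 16.6% with cluster 6. Of the 4 h member UMIs, cluster 8 held 24 of 26 for Fgf18, 80 of 91 for Ccn2 and 1811 of 2233 for Krt15. Integrins gave 4 and 2 of 15 (median 0.72), with 0 and 1 of 14 in comparison cells. Plasminogen genes gave 4 and 0 of 9 (median 0.79), with 0 and 0 of 4 in comparison cells. Hyaluronan and prostaglandin genes gave 5 and 1 of 10 (median 0.88), with 1 and 2 of 8. With the 4 h members of cluster 8 these lists gave 3 and 0 of 14, 2 and 2 of 6, and 2 and 1 of 9. With those of cluster 6 they gave 6 and 3 of 14, 3 and 0 of 9, and 5 and 1 of 10. ERBB genes gave 5 and 1 of 13 (median 0.55), with 1 and 0 of 14 in comparison cells. By cluster they gave 2 and 3 of 13 with cluster 8 (median 0.08) and 6 and 1 of 13 with cluster 6 (median 0.91). G1 genes gave 0 and 8 of 15 in members (median -1.01) and 0 and 5 of 13 in comparison cells (median -0.09, beside -0.01 over all genes), where 10.8% of all genes were higher at 16 h in comparison cells. Cytokine genes gave 1 and 3 of 11 (median -0.54), with 0 and 1 of 7 in comparison cells. By cluster they gave 0 and 5 of 10 with cluster 8 (median -1.20) and 1 and 2 of 11 with cluster 6 (median -0.07). BCL-2 and p53 genes gave 0 and 5 of 16 (median -0.33), with 0 and 0 of 12 in comparison cells. Ribosome biogenesis genes gave 2 and 0 of 20 in members (median 0.45) but 10 and 0 in comparison cells (median 0.95).

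Sums over all 421 members included cells rich in suprabasal markers. Of 8313 genes with at least 20 UMIs, 159 (1.91%) were at least 2-fold higher than in all 545 comparison cells at both times and 103 (1.24%) lower. At 4 h alone 414 genes of 8356 (4.95%) were higher and 549 (6.57%) lower, at 16 h 429 of 10725 (4.00%) and 739 (6.89%), and 7 (0.0842%) and 2 (0.0241%) lay on opposite sides in the libraries. The 15 named by size included Lce1b, at 94.4 and 834 CPM against 0.732 CPM (1 UMI) and 1.35 CPM, and Lor, which encodes the cornified envelope protein loricrin, at 5523 and 2668 CPM against 19.0 and 249 CPM. Krt18, Spns2, Kcnn4 and Krt23 were the genes among them outside the late epidermal differentiation families Lce, Lor, Slpi, Wfdc21 and Psors1c2. Members in which suprabasal markers exceeded 10000 CPM numbered 13 at 4 h and 13 at 16 h, yet they held 22.1% and 14.9% of member UMIs, and supplied more than 50% of the member UMIs for 65 of the 159 genes at 4 h and 58 at 16 h. Comparison cells past the same level numbered 18 and 34 and held a larger share of their UMIs, at 31.5% and 24.8%. Reads of the Lce1 genes can be shared between near-identical copies, so the values of single copies are uncertain.

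Of the 159 genes higher over all members, 45 (28.3%) were also among the 109 of the main clusters (41.3% of these), and of the 103 lower genes 54 (52.4%) were among the 165 (32.7%). The lower genes of both sets included Fgf18, Shisa2, Npnt, Ccn2, Adgrg6 and Ackr4. Itga2 over all members was at 144 and 70.5 CPM against 19.8 and 22.5 CPM, and Ptgs2 at 239 and 204 CPM against 90.1 and 74.1 CPM. Krt8 was at 24.5 and 139 CPM against 8.79 and 4.95 CPM. The 3 markers that the rule did not use thus kept the direction they had in the main clusters, apart from Krt8 at 4 h.

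Between 4 h and 16 h, 520 of 9678 genes (5.37%) were 2-fold higher over all members at 4 h and 1446 (14.9%) at 16 h, with 650 (6.35%) and 1548 (15.1%) of 10242 in all comparison cells. The genes named at 4 h were Lce3d, Sprr2f, Sprr2i, Chil1, Lce3f, Il1f6, Sprr2d, Cxcl2, Lce3e, Cck, Slpi and Prss27, many of them genes of barrier repair in the outer epidermis. Those at 16 h were Ccl2, Lce1j, Lce1h, Cdca3, Cenph, Aurkb, Elovl3, Lgi2, Acyp2, Aspm, Inhba and Acta2. Cdca3, Cenph, Aurkb and Aspm act in mitosis. Slpi stood at 904 CPM over all members at 4 h and 38.9 CPM at 16 h, the opposite order from the main clusters.

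Markers of other cell types were summed in the same cells. In the main clusters T cell markers stood at 3.88 and 7.91 CPM in members and fibroblast markers at 9.05 and 0.719 CPM (7 and 1 UMIs). Langerhans and myeloid markers stood at 36.2 and 14.4 CPM in members of the main clusters but at 332 and 151 CPM over all members, with Cd74 the most abundant and Lyz2 and Csf3r at 0 UMIs in both. Suprabasal markers stood at 2246 and 1909 CPM in members of the main clusters and 1416 and 1968 CPM in comparison cells, below the 6153 and 7007 CPM of T cells. Basal interfollicular markers, which bulge cells also express, stood at 22794 and 16951 CPM against 22157 and 20527 CPM, with Krt14 the most abundant. Melanocyte markers stood at 11.6 and 16.5 CPM, mostly from Mitf, with Pmel, Tyrp1 and Mlana at 0. Markers of the upper follicle stood at 495 and 665 CPM against 234 and 539 CPM. The part of these signals in the differences given above was not tested, beyond the values given with and without the other clusters.

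Doublets could not be called with confidence, since the caller's own threshold marked 0 cells in each library. Among the highest-scoring cells, set aside only as an alternative, were 26 members at 4 h (14.3% of members, against 6.62% of all filtered cells) and 27 at 16 h (11.3% against 8.33%). Comparison cells gave 6.52% and 13.8%. Members at 4 h thus had the higher share of such cells, and their part in the state was not tested beyond leaving them out.

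The markers were last read in all cells with at least 4 UMIs of Cd34, Krt24, Sfrp1 and Lhx2, a set that does not use Cpa4, Anxa3 or Has2 and exists in each of the 6 libraries (468, 211, 541, 552, 2716 and 1779 cells in order of time). Cpa4 stood at 3.44 CPM at 0 h, 53.03 CPM at 4 h and 20 CPM at 16 h, then 0.627 CPM (2 d), 0 UMIs (4 d) and 2.44 CPM (6 d). Anxa3 stood at 0.287, 8.16, 41.8, 2.82, 3.33 and 2.44 CPM in the same order. Cpa4 was thus highest in the 4 h library and Anxa3 in the 16 h library. Has2 stood at 17.8, 16.8, 6.83, 6.74, 3.76 and 9.77 CPM, with no excess at 4 h over 0 h. At least 2 UMIs of the 3 genes were held by 27 of 211 of these cells at 4 h (12.8%, 8.60 to 18.1%) and by 80 of 541 at 16 h (14.8%, 11.9 to 18.1%), against 2.78% (0 h), 2.36% (2 d), 0.847% (4 d) and 2.02% (6 d). After thinning to 3000 UMIs the shares at 4 h and 16 h were 8% (6 of 75) and 3.43% (7 of 204), and 2.63% at 0 h (8 of 304). Their intervals were 2.99 to 16.6%, 1.39 to 6.94% and 1.14 to 5.12% in that order. These overlap, so an excess over 0 h was not resolved at this depth.

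Itga2, Ptgs2 and Krt8, which the rule did not use, were read in the same cells. Ptgs2 stood at 59.96 CPM at 0 h, 144 CPM at 4 h and 93.7 CPM at 16 h, then 38.7 CPM (2 d), 9.95 CPM (4 d) and 14.3 CPM (6 d). Itga2 stood at 40.5, 55.6, 31.2, 31.7, 19.6 and 18.3 CPM, so that its 16 h level in this set lay below that at 0 h. Krt8 stood at 6.599, 10.2, 27.3, 2.67, 3.91 and 5.51 CPM, highest in the 16 h library. The set was not restricted to clusters, and its Krt15 level was 11521 CPM at 0 h, 4860 CPM at 4 h and 6179 CPM at 16 h. The part of its mix of cells in the orders of these markers was not tested. With 1 library at each time, none of these orders has an error that includes the mice.

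**Figure D4:**
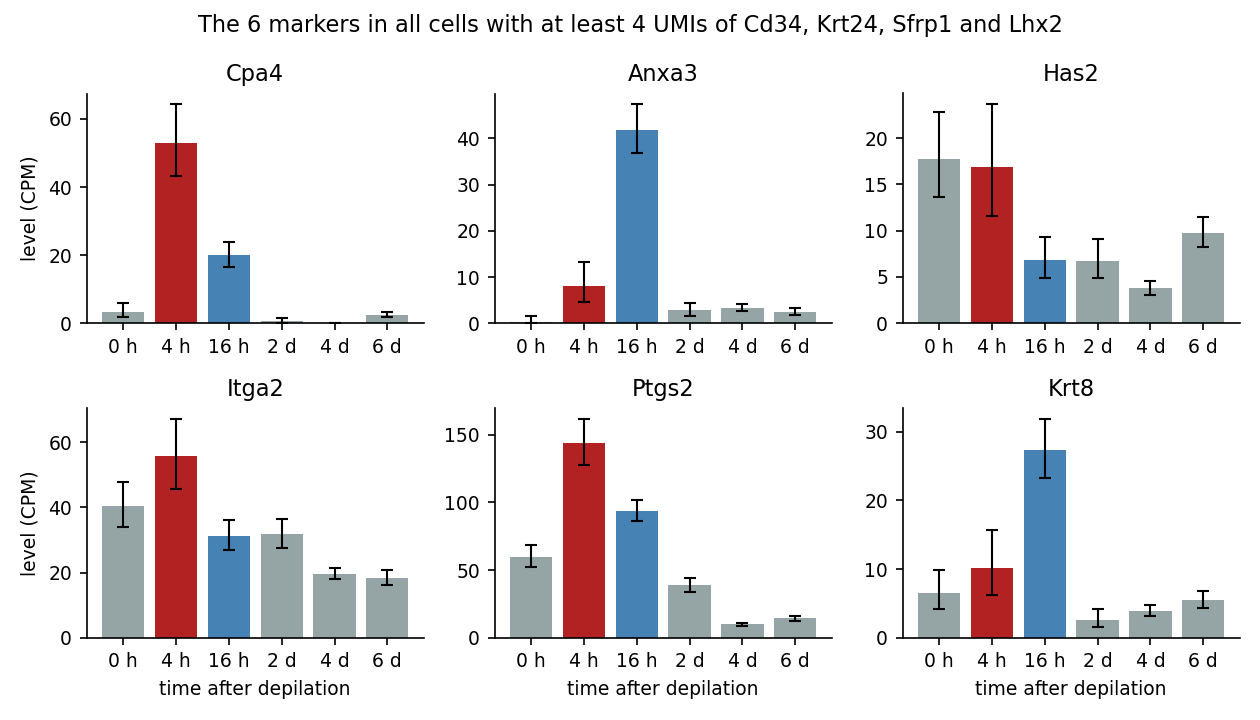
Levels of Cpa4, Anxa3, Has2, Itga2, Ptgs2 and Krt8 (vertical axes, CPM of the summed UMIs) in cells with at least 4 UMIs of Cd34, Krt24, Sfrp1 and Lhx2, by library (horizontal axis). Bars are exact 95% Poisson intervals. Cpa4 is highest at 4 h (53.03 CPM) and Anxa3 and Krt8 at 16 h (41.8 and 27.3 CPM).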

How the data were processed

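The values are UMI counts per gene and barcode, deposited by the authors as 1 filtered matrix for each of 6 libraries. Cell Ranger 6.1.2 and the build mm10 are named in the submitters' processing notes. The members and gene lists were chosen with earlier results of these data known. Cells with 500 to 7000 genes and at most 10% mitochondrial UMIs were kept, and counts were summed per set of cells and divided by the set's total (CPM). With 1 library of 2 mixed mice per time, no count model was fitted. Fold sizes needed at least 20 UMIs over both sets, and a set at 0 was given 3 UMIs as its floor. Genes were named as the 15 higher and 10 lower with the largest smaller-of-both-libraries fold, or the 12 largest between times, among those with at least 30 UMIs in the higher set. Genes of the rule, ribosomal, mitochondrial, Gm and Rik genes and repeated symbols were left out of this naming. The main clusters, those with at least 20% of members or comparison cells, came from Leiden clusters rebuilt here and not from the study. T cells held at least 3 UMIs of T cell markers. Python 3.11.15 was used with numpy 2.4.6, scipy 1.17.1, pandas 2.3.3, scanpy 1.11.5 and igraph 0.11.9, and R 4.3.3 with edgeR 4.0.16 for TMM factors alone. The fold calculation was tested on simulated data. Alternatives varied the criteria, the depth, the scaling, the low-count filter and the clusters. Promoter sequences and gene positions came from RefSeq (GRCm38.p6) and the GRCm38 annotation. A few of the genes named by these rules are not reported here.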

Additional observations from a re-analysis of the deposited data

Results flagged for a closer look

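Thbs1, which encodes the matricellular protein thrombospondin 1, lay on opposite sides of the comparison cells in the main clusters, with a log2 fold of 1.53 at 4 h and -1.04 at 16 h. Its level in members was 582 and 298 CPM and in comparison cells 202 and 612 CPM. Sprr1a, a cornified envelope precursor, gave log2 folds of 2.63 and -1.10 in the same clusters. Its level was 195 and 28.8 CPM in members, 31.6 and 61.6 CPM in comparison cells, and 669 and 310.2 CPM in T cells. At 4 h 146 of its member UMIs came from cluster 6, which held only 6 comparison cells. Within 4 h cluster 8 Sprr1a was lower in members (18.2 against 29.2 CPM), the direction seen at 16 h. Thbs1 stayed higher in members there (579 against 186 CPM). Over all members Krt79, a keratin of the upper follicle, gave 1.22 at 4 h and -1.78 at 16 h, and Defb6, a defensin gene, gave 1.07 and -1.35. With 1 library at each time, none of these differences was tested.

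The criteria also found cells in a library outside the comparison, with 0.817% of filtered cells at 6 d against 0.491% at 0 h. After thinning to 3000 UMIs the shares were 0.194% and 0.136%. Suprabasal markers exceeded 10000 CPM in 40 of the 81 cells at 6 d, and these held 81.4% of the UMIs of the 81 cells.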

How the results depend on the processing

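Shares of the state moved with every change of its criteria. At 4 h (2.38%) it was 1.54% with at least 3 UMIs of Cpa4, Anxa3 and Has2, 0.431% with at least 4 UMIs of the 5 bulge genes of the rule, 0.839% after thinning, 1.63% in the main clusters, 0.600% in those with at least 20% of comparison cells and 0.339% with at least 4 UMIs of Cd34, Krt24, Sfrp1 and Lhx2 (called 4 bulge UMIs below) in the main clusters. At 16 h (2.74%) the values in that order were 1.80%, 0.928%, 0.723%, 1.72%, 1.72% and 0.745%, and 3.35% without suprabasal-rich cells. The 159 genes higher in both libraries became 46 with at least 4 bulge UMIs and 26 with that in main clusters. They became 31 in clusters with at least 20% of comparison cells and 93 without suprabasal-rich cells. With at least 1 UMI and 0.5 UMI added they became 516, a setting in which the low-count filter was not changed alone. The 103 lower genes became 157 with 3 rule UMIs, 188 with 4 bulge UMIs and 200 with means of per-cell CPM. They became 165 in the main clusters, 64 with 4 bulge UMIs in the main clusters and 637 with at least 1 UMI and 0.5 UMI added. Between times, with at least 1 UMI and 0.5 UMI added, the 520 genes higher at 4 h became 1566 and the 1446 higher at 16 h became 2691. In main clusters with 4 bulge UMIs the 1446 became 751. Directions over all members turned for Lor (-2.96 with 4 bulge UMIs and -0.58 in main clusters, log2 fold at the smaller of both libraries), Krt23 (-3.75 with 4 bulge UMIs) and Krt15 (0.0305 with 4 bulge UMIs). Between times they turned for Slpi (-4.99 in main clusters, -3.49 in clusters with at least 20% of comparison cells and -3.23 without suprabasal-rich cells) and Sprr1a (-1.58 with 4 bulge UMIs and -0.66 in clusters with at least 20% of comparison cells). TMM factors were between 0.95 and 1.038. The cluster and suprabasal alternatives were chosen after seeing the data, and the cause of the changes was not tested. No paired analysis was possible because each time point has 1 library and the labels number no replicates, and leaving out a replicate was not possible. The shallower member sum at 4 h limits genes of low level there.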
